A study of Mus musculus with 3 samples.

Results

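The genes described here are the cytosolic ribosomal protein genes of the mouse, those that encode the protein part of the ribosome outside mitochondria. They were chosen by name: protein-coding genes of GENCODE M21 whose symbol is Rpl or Rps with a number (with the suffixes a, l, x or y), or Rplp0, Rplp1, Rplp2 or Rpsa. This gave 83 members of 55536 genes in the deposited tables, 51 of the large subunit and 32 of the small subunit. A further 6 symbols that match are annotated as pseudogenes (Rps4l, Rps12l1, Rpl32l, Rpl6l, Rps3a2 and Rps3a3) and are not members. The RNA came from effector memory CD4 T cells of the alpha-beta lineage, primary cells of 1 male C57BL/6J mouse aged 7 months, with no treatment given in the labels. Polyadenylated RNA was sheared, fragments in the size range 100 to 300 bases were taken, and 3 libraries were made, which the labels number as technical replicates of the same biological sample. There is therefore 1 group and no comparison between conditions, and every spread below is a spread between libraries of 1 mouse, not between animals.

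Each ribosome is built from a small subunit, which reads the mRNA, and a large subunit, which joins the amino acids, and each protein is needed about once per ribosome. The mRNAs of these proteins are short and abundant, and many begin with an uninterrupted run of C and T at their first base, the terminal oligopyrimidine tract, through which mTOR signalling and LARP1 control their translation. T cells raise ribosome production when antigen drives them to divide.

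The 3 libraries held 16251564, 14878641 and 14152590 estimated read counts assigned to genes. Rows that name no gene took 0.188%, 0.579% and 0.240% of all counts in libraries 1, 2 and 3, so that library 2 held the largest share. The T cell genes Cd4, Cd3e, Cd3g, Trac and Lck were all present (median of the 5 genes 699, 649 and 694 TPM, the deposited level, which accounts for transcript length and library depth), while the median of 6 markers of other cells (Cd8a, Cd79a, Lyz2, S100a8, Hbb-bs and Col1a1) was 0.305, 0.270 and 0.385 TPM. Of those 6, Hbb-bs alone was tested for differences between libraries, and its 3.64, 6.59 and 1.46 TPM were highest in library 2, with a count uncertainty (explained further on) of 41.1%. The part of these differences between libraries in the members' values was not tested.

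Annotated start sites were looked up in a RefSeq table of mouse promoters on GRCm38.p6, which held 63 of the 83 members. A run of at least 5 C or T letters on the transcribed strand covered the start in 20 of 63 members (31.7%, exact 95% binomial interval 20.6 to 44.7%), against 11.8% of all 27025 promoters in the table. Here and below, the share of members is by gene and that of all is by promoter. Some members, such as Rps24, have more than 1 promoter, so the units are not quite alike. A run of at least 8 letters covered it in 17 of 63 (27.0%), against 4.59% of all. Within 10 bases of the start the shorter run was found in 74.6% of members and 50.1% of all promoters. The pentamer CTTTC lay within 50 bases of the start on the transcribed strand in 50.8% of members against 14.6% of all, and on the other strand in 14.3% against 13.8%. CTTCC lay on the transcribed strand in 46.0% against 22.2%; its matches and those of CTTTC may lie inside the C and T runs already counted. The windows below show the feature in 8 members, picked after their sequences were seen, and its absence over the start of 5 others. Of these 5, Rpl22 and Rpl22l1 were well expressed here and Rps27l, Rpl3l and Rpl10l were low. In Rpl22l1 and Rps27l a run of at least 5 letters does not cover the start but begins directly after it. Each window is 30 bases long on the transcribed strand, begins 15 bases before the annotated start, and has any run that covers the start in capitals.
Rpl15 (chr14:18270972-18271001, minus strand): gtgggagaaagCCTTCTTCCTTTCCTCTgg
Rps6 (chr4:86857353-86857382, minus strand): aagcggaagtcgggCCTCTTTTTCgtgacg
Rpl7a (chr2:26910792-26910821, plus strand): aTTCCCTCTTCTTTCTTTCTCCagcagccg
Rps18 (chr17:33955651-33955680, minus strand): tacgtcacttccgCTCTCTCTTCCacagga
Rpl35 (chr2:39005117-39005146, minus strand): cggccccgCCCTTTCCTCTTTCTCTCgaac
Rplp2 (chr7:141447636-141447665, plus strand): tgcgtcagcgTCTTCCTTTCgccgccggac
Rps27 (chr3:90213634-90213663, minus strand): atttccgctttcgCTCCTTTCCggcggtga
Rps10 (chr17:27635230-27635259, minus strand): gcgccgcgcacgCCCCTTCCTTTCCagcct
Rpl22 (chr4:152325711-152325740, plus strand): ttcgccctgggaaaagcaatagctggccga
Rpl22l1 (chr3:28805493-28805522, plus strand): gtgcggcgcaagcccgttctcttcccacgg
Rps27l (chr9:66946071-66946100, plus strand): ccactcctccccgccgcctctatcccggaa
Rpl3l (chr17:24727811-24727840, plus strand): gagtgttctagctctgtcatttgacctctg
Rpl10l (chr12:66284387-66284416, minus strand): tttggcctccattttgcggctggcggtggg
In a second look at the first bases of the leading coding transcript in GENCODE M21, where nothing before the start was read, both the start and the criterion differ. The first 5 bases were all C or T in 12 of 79 members (15.2%) and in 4.22% of 9638 genes, and a run of at least 5 lay within the first 10 bases in 28 of 79 (35.4%) and in 15.4%.

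The members were short and spread over the genome. Their median transcript length was 596 bases, against 2316 bases for all protein-coding genes with enough counts to test. Their median span on the genome was 3368 bases, against 17318 bases for all 22028 protein-coding genes. They lay on 19 chromosomes, with 14 on chromosome 7, 8 on chromosome 17 and 7 each on chromosomes 9 and 11. Annotated small nucleolar RNAs, which guide modification of ribosomal RNA, lay within 30 of the 83 members (36.1%), 58 such RNAs in all, against 1.18% of the 22028 protein-coding genes. Rpl4 held the most, 5.

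The members were among the most abundant mRNAs of these cells. Of the 83, 80 had a mean of at least 10 TPM, 73 at least 100 and 24 at least 1000. Their median level was 633, 440 and 642 TPM in libraries 1, 2 and 3, against a median of 16.8 TPM over the 13731 genes with a mean of at least 1 TPM and 40.6 TPM over the 78 mitochondrial ribosomal protein genes. Together they held 7.50%, 5.76% and 7.61% of all TPM (6.96 ± 1.04%, SD, n = 3 libraries) and 2.62%, 1.96% and 2.69% of gene counts (2.42 ± 0.401%). They made up 2 of the 20 most abundant nuclear protein-coding genes, 24 of the first 100 and 38 of the first 200. In bulk RNA, fewer cells and less RNA per cell cannot be told apart.

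Rps19 (chr7:24884371-24889806, plus strand), a small subunit protein whose human counterpart is mutated in Diamond-Blackfan anaemia, was at 4364, 3898 and 4415 TPM, from 15998, 12675 and 14247 estimated counts, the highest of the small subunit. Library 2 was the lowest library and libraries 1 and 3 lay close together. Rpl13a, which also has a role outside the ribosome in silencing inflammatory mRNAs, was at 2611, 2084 and 2639 TPM. The next in order were Rps27 (mean 2298 TPM), Rpl32 (2208), Rpl41 (1900), Rps18 (1869), Rpl37a (1847), Rps14 (1816) and Rps25 (1614); from Rpl41 to Rps14 the neighbours in this order differed by less than their SDs between libraries (189 to 364 TPM). The acidic stalk proteins of the large subunit, which recruit the elongation factors, were all abundant. Rplp0 was at 1709, 1401 and 1719 TPM, Rplp2 at 1534, 1048 and 1604 TPM, and Rplp1 at 1363, 950.0 and 1343 TPM.

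**Figure D1:**
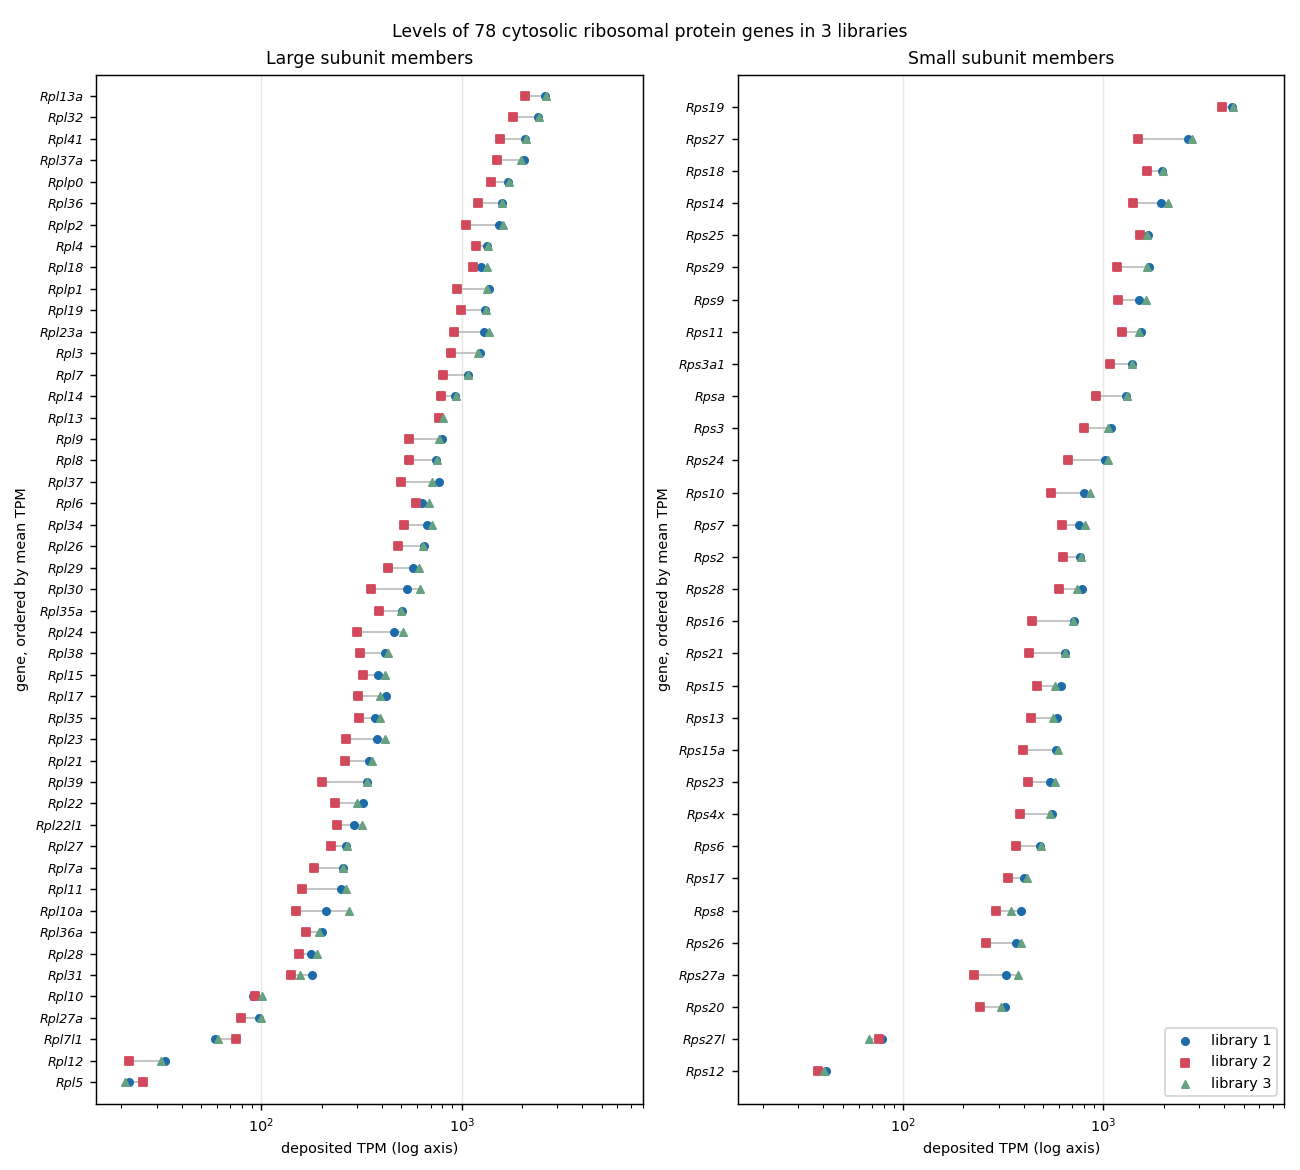
Deposited TPM (log axis) of 78 of the 80 members with a mean of at least 10 TPM, large subunit at left and small subunit at right, ordered by mean; circles, squares and triangles are libraries 1, 2 and 3, and a grey line joins the lowest and highest. Library 2 is the lowest point in nearly every row, and the levels shown run from 22.8 TPM in Rpl5 to 4226 TPM in Rps19.

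The low end held paralogs and also proteins that every ribosome needs. Rpl10l, a retrogene known from the male germ line, had 0, 1 and 0 counts, and Rpl3l, known from heart and skeletal muscle, had 0, 0 and 1. A count of 0 allows up to 0.185, 0.202 and 0.212 CPM (counts scaled to library size) in the 3 libraries; this covers counting error only. Rpl39l, known from testis, had 1.22, 0.38 and 1.14 TPM from 9.19, 2 and 5 counts. Above these 3 stood Rpl5 at 21.8, 25.8 and 20.8 TPM, Rpl12 at 33.2, 21.9 and 31.5 TPM and Rps12 at 41.4, 37.5 and 40.2 TPM, then Rpl7l1 (mean 64.6), Rps27l (73.9), Rpl27a (91.9) and Rpl10 (94.7). Rpl5 and Rpl11 bind the 5S ribosomal RNA and, when ribosome assembly fails, inhibit Mdm2; Rpl11 was at 251, 160 and 265 TPM, well above Rpl5. Rps6, the substrate of the S6 kinases that serves as a readout of mTOR activity in T cells, was at 483, 364 and 488 TPM. Rps27a, made as a fusion with ubiquitin, was at 326, 226 and 375 TPM. The levels in this paragraph leave out near-identical copies of these genes, which are taken up further on.

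The median of small subunit members was above that of large subunit members in each library. The large subunit medians were 502, 353 and 508 TPM (454 ± 87.5, SD, n = 3 libraries) and the small subunit medians 762, 573 and 753 TPM (696 ± 107). The ratio of large to small was 0.660, 0.617 and 0.674. Rpl10l, Rpl3l and Rpl39l, the only members below 10 TPM, are all of the large subunit. Over members at 10 TPM or more the ratio was 0.727, 0.709 and 0.821. Members are not replicates of a subunit, so no test was made. The direction did not hold for the members whose counts were best determined: over the 21 large and 17 small subunit members with a count uncertainty of at most 1% (a measure explained next; Rpl3l, with 1 count in all, is among them), the ratio was 1.16, 1.18 and 1.27.

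Many members have near-identical copies elsewhere in the genome. Ribosomal protein mRNAs are often copied back into the genome as intron-free processed pseudogenes, and a read from such a sequence can be assigned to the parent or to the copy. The files give, beside each estimated count, a posterior mean and SD; the SD as a percentage of that mean is called the count uncertainty here, taken from the library where it was highest. Its median was 1.11% over the 80 members with a mean count of at least 100, against 0.0275% over all 9083 genes with such a count. It was highest in Rps12 (15.6%), Rpl10 (11.2%), Rpl12 (8.50%), Rpl10a (8.30%), Rpl5 (8.24%), Rpl31 (7.63%), Rpl17 (6.17%) and Rpl11 (6.12%). Of the 6 lowest members above 10 TPM, Rpl5, Rpl12 and Rps12 were thus also among the least certain.

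Copies were sought by aligning each member's coding sequence to all GENCODE M21 transcripts and keeping genes with at least 90% identity over at least 80% of it. There were 991 such copies, 977 of a pseudogene type and 13 annotated as protein coding, and 77 of the 83 members had at least 1. Of the copies, 161 had 0 counts in all libraries, but 68 reached a mean of 10 TPM and 42 reached 100 TPM. In all they held 0.778%, 0.565% and 0.795% of gene counts. A member with many copies did not always have many counts in them: Rpl21 had 76 copies and Rpl7a 75, with 8.50% and 10.5% of their family's counts in copies, while Rpl5 had 6 copies with 95.3%. Nor was a low level always beside a large share: Rpl7l1 (64.6 TPM) and Rps27l (73.9 TPM) had 1.04% and 0.690% in copies, while Rpl13 (786 TPM) and Rps27 (2298 TPM) had 75.7% and 55.6%.

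In 20 of the 80 members at 10 TPM or more, 11 large and 9 small, copies held over 50% of the counts of member and copies together. In Rpl5 the 6 copies held 95.9%, 94.0% and 96.1%. Its leading copy Gm15500 (chr7:114705217-114706235, minus strand), a transcribed processed pseudogene identical to Rpl5 over all 891 coding bases, was at 464, 366 and 472 TPM, against 20.8 to 25.8 TPM for Rpl5 itself. In Rpl12 copies held 92.4 ± 0.528%, led by Gm10275 at 986, 609 and 978 TPM, identical over 495 bases. In Rps12 they held 88.9 ± 2.28%, led by Rps12l1, and in Rpl10 88.8 ± 1.15%, led by Rpl10-ps3 (546, 414 and 552 TPM). In Rps6 they held 67.9 ± 0.367%, led by Rps6-ps4, and in Rps27a 56.2 ± 2.13%, led by Gm8430. The most abundant copy of any member was Gm12918, identical to Rpl13 over 633 bases, at 3129, 2898 and 3151 TPM beside 783, 773 and 803 TPM for Rpl13. Of the 991 copies, 24 were identical to the parent over the aligned coding sequence, and 21 of these reached 10 TPM. Reads from such coding sequence cannot tell the pair apart, and whether the copies are transcribed was not tested. Gm11518 and Rpl27-ps3, both identical to Rpl27 over 408 bases, were each given 1925, 1366 and 1834 counts, the same values, with count uncertainties of 59.7% and 41.0%.

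Where copies differ, they differ by little. Rpl11 and its copy Gm10288 (chr3:146838811-146839347, minus strand; 591, 464 and 590 TPM) have 1 difference in 534 coding bases, which is shown in capitals within coding bases 56 to 116, since a read that misses it carries nothing to separate them there.
Rpl11: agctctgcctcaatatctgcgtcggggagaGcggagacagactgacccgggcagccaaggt
Gm10288: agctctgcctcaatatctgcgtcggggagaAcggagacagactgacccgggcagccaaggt

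**Figure D2:**
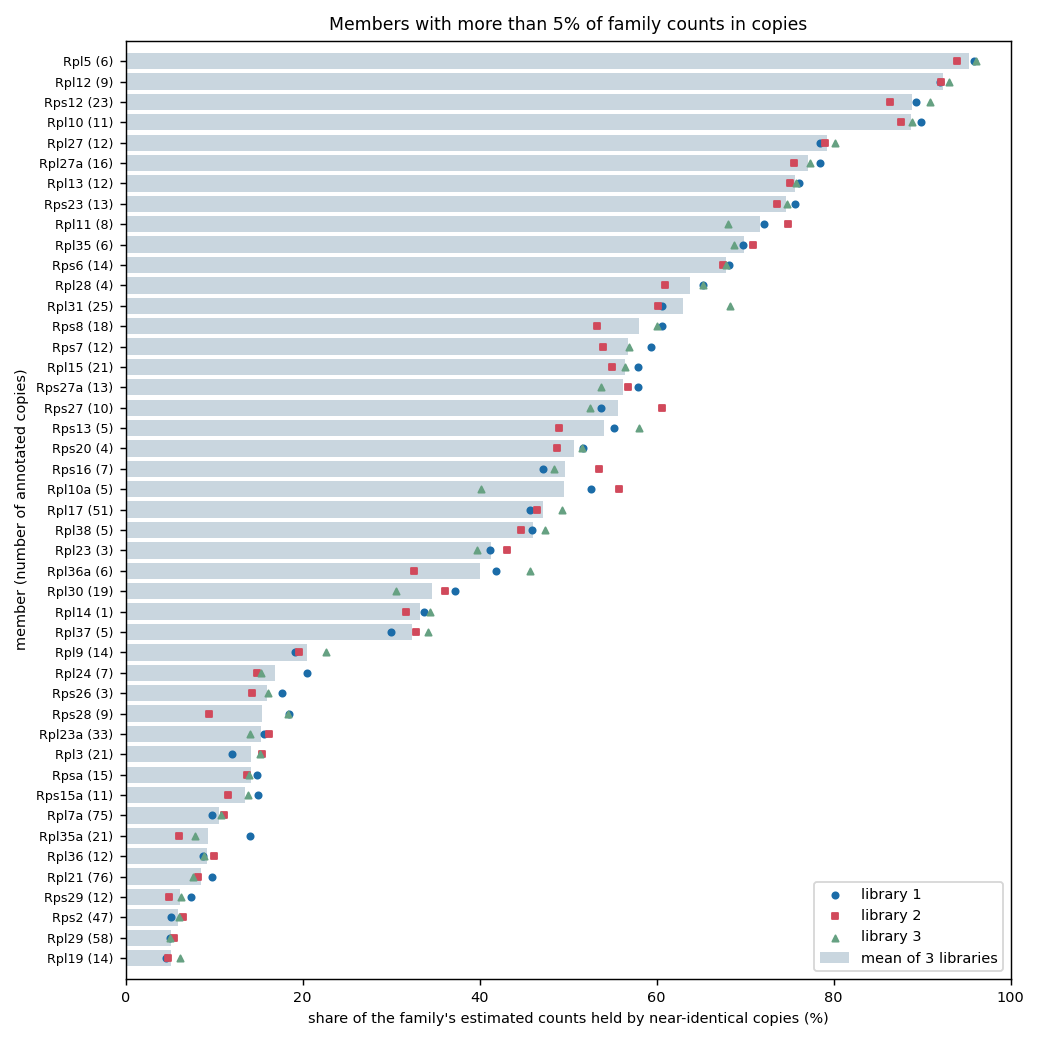
Share of the estimated counts of a member and its copies together that lies in the copies (%), for the 45 members above 5%; bars are means of 3 libraries, symbols the libraries, and the number of annotated copies is in brackets. The share runs up to 95.3% in Rpl5 and differs little between libraries in most members.

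Adding each member's copies to it brought the members closer together. The median of large subunit members at 10 TPM or more went from 521 to 898 TPM and that of small subunit members from 713 to 985 TPM. The SD of log2 level went from 1.61 to 1.09 among large subunit members and from 1.33 to 1.10 among small subunit members. The fold between the highest and the lowest small subunit member went from 106 to 65.1. Rpl5 moved from 22.8 to 459 TPM, Rpl12 from 28.9 to 892 TPM, Rps12 from 39.7 to 555 TPM and Rpl10 from 94.7 to 927 TPM. Rps6 moved from 445 to 1556 TPM and Rps27a from 309 to 866 TPM. With copies, over all members, the ratio of large to small medians was 0.842, 0.885 and 0.894.

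**Figure D3:**
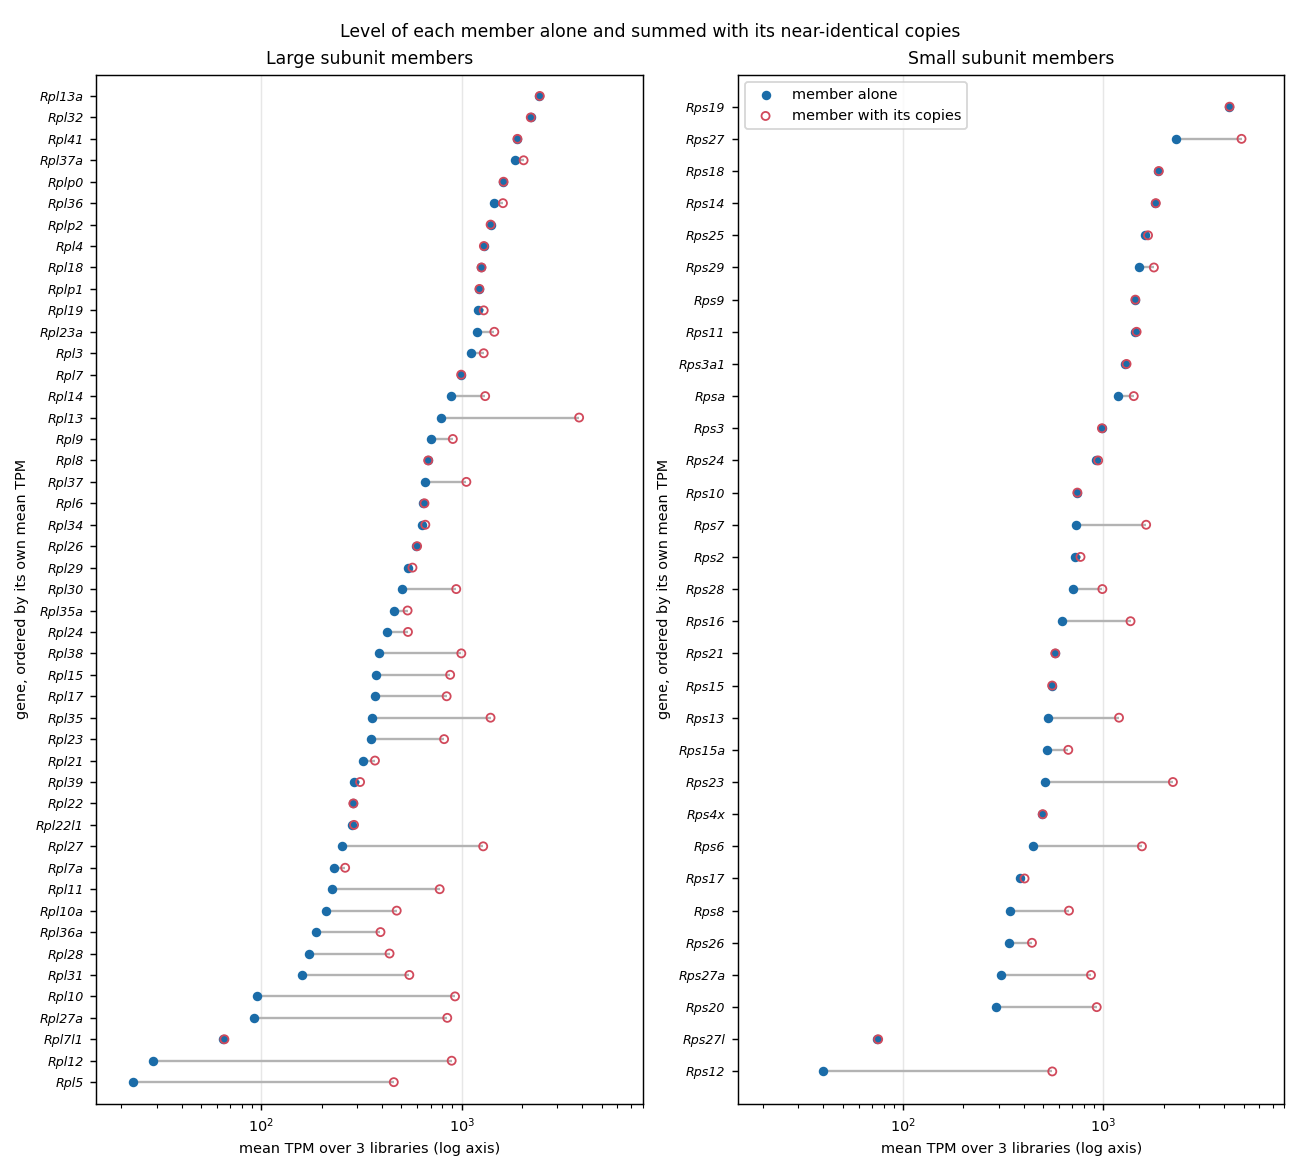
Mean TPM over 3 libraries (log axis) of 78 of the 80 members alone (filled) and summed with its near-identical copies (open circle). The longest lines are at the low end, where Rpl5, Rpl12, Rpl10, Rpl27a and Rps12 move to between 459 and 927 TPM.

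The transcript tables gave a related picture. The leading transcript held a median of 82.8% of a member's TPM and annotated protein-coding transcripts a median of 94.9%, but in 21 of 80 members the leading transcript was not annotated as coding. Among the 20 members with over 50% of counts in copies, coding transcripts held a median of 29.2% of TPM and fewer than 50% in 12; among the 42 members with under 10% in copies, the median was 98.3% and 4 were below 50%. In Rpl5, where coding transcripts held 4.90%, the leading transcript Rpl5-205 is annotated as a retained intron. In Rpl12 the leader Rpl12-201, and in Rps12 the leader Rps12-204, are annotated as targets of nonsense-mediated decay. Rps16, Rps26, Rps23 and Rps13 had 91.7% to 96.4% of their TPM in 1 retained-intron transcript, and Rpl35 97.5% in the processed transcript Rpl35-203. Reads were assigned among overlapping transcripts by estimation, and these shares are such estimates.

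Highly expressed members could be split between transcripts too. Rps19 had 50.2 ± 1.13% of its TPM in the coding Rps19-210 and 45.7% in the retained-intron Rps19-206. On protein-coding transcripts alone Rps27 had a mean of 2278 TPM and Rpl32 of 2208. Among the members with the least dominant transcripts were Rpl10, Rpl11, Rpl5, Rpl12 and Rpl13a, whose leaders held 29.7%, 33.5%, 43.4%, 46.6% and 49.5%. Rps24, whose transcripts differ in the use of very small exons near the 3′ end, had 642, 527 and 695 TPM in Rps24-202 and 260, 71.6 and 244 TPM in Rps24-201. Rps24-201 thus made 25.5%, 10.7% and 23.1% of the gene's TPM, lowest in library 2.

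Several members have a paralog with a restricted role, and these pairs differed widely. Rpl22, which is needed for development of alpha-beta T cells and represses its paralog, was at 324, 233 and 301 TPM, and Rpl22l1 (chr3:28805436-28807424, plus strand) at 291, 239 and 319 TPM. Rpl22l1 made 47.3%, 50.7% and 51.4% of the pair's TPM, so the 2 genes were not separated by more than the spread between libraries. Of Rpl22l1, however, 75.3% lay in Rpl22l1-209, a transcript not annotated as coding. On coding transcripts alone Rpl22l1 was at 18.3, 19.0 and 30.7 TPM and made 7.50 ± 2.01% of the pair. The coding sequences of the pair share 70.2% of bases. Count uncertainty was at most 1.08% in Rpl22l1 and 0.126% in Rpl22.

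The other paralogs by the rule were minor. Rps27l, a p53 target, was at 78.7, 75.5 and 67.5 TPM and made 2.89%, 4.83% and 2.39% of its pair with Rps27. Rpl7l1, which acts in assembly of the large subunit, was at 58.5, 74.9 and 60.5 TPM and made 5.17%, 8.48% and 5.29% of its pair with Rpl7. In both, the share was highest in library 2. Rpl39l made 0.362%, 0.190% and 0.339% of its pair with Rpl39. Rps4l, Rps3a2 and Rps3a3, pseudogenes by annotation, were each below 1% of the pair with their parent in every library.

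Related genes outside the rule were abundant. Rps27rt, an intron-free gene annotated as coding, has the same 252 coding bases as Rps27 and was at 2806, 2092 and 2771 TPM beside 2647, 1486 and 2762 TPM for Rps27. Rpl36al was at 267, 255 and 286 TPM and made 59.0% of its pair with Rpl36a on average, with 87.7% identical bases. Rpl37rt, annotated as a transcribed processed pseudogene and also counted among the copies of Rpl37, was at 425, 323 and 438 TPM. It made 37.7% of its pair with Rpl37 on average, with 99.7% identical bases. Of the 770, 496 and 711 TPM of Rpl37, however, only 21.5, 9.90 and 9.76 TPM lay in coding transcripts. The first 90 coding bases of Rps27, which are those of Rps27rt, are shown beside Rps27l, with the 24 differing bases in capitals, to set an identical pair beside a divergent one. Count uncertainty reached 5.92% in Rps27, 4.07% in Rps27rt and 0.737% in Rps27l.
Rps27: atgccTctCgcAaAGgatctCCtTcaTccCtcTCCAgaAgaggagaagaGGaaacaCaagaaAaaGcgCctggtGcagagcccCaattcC
Rps27l: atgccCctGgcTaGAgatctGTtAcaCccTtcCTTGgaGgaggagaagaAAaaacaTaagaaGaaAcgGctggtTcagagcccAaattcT

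Members were lower in library 2 than in the other libraries. For each gene, rounded estimated counts of the 3 libraries were compared by a chi-square test of equal share, with effective library sizes from the TMM method and Benjamini-Hochberg adjustment over all genes with at least 30 counts in all. The test asks only whether libraries of 1 mouse differ beyond counting noise. Of the 80 members tested, 75 (93.8%) had an adjusted p under 0.05, against 57.2% of the 13949 genes tested. They passed with library 2 lowest in 74 (92.5%), against 17.9% of all genes, and with library 2 highest in 1, Rpl7l1, against 27.3%. Since most genes passed, the statistic was also divided by its median inflation of 6.45: 59 members (73.8%) then passed, against 4.45% of all genes. All 59 had library 2 lowest, against 1.68% of all genes, and none had it highest, against 2.6%. Genes with more counts pass more easily. All 80 members had a mean count of at least 100, as did 9083 of the 13949 genes. With a minimum of 100 counts in all, 61.9% of all genes passed before the division and the median inflation was 7.42. The share among genes of like count was not computed, so the part of the gap that goes with counts was not tested.

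The difference was of like size in both subunits. The log2 ratio of library 2 to the mean of libraries 1 and 3 had a median of -0.41 over the 80 members (0.753-fold; quartiles -0.52 and -0.30), -0.41 over large and -0.41 over small subunit members. Over all genes tested the median was 0.03, over mitochondrial ribosomal protein genes -0.0028, over the other 1650 coding genes at 100 TPM or more 0.10, and over the 304 of these with transcripts of at most 1000 bases -0.000616. Libraries 1 and 3 were close for members: their median absolute log2 difference was 0.053, against 0.164 over all genes tested. The genes tested include some with as few as 30 counts in all, while all 80 members had a mean count of at least 100. Counting noise is larger at low counts, and genes of like count were not compared. The copies had a median of -0.47 over the 132 tested, and library 2 was lowest in 98 of them (74.2%), against 32.1% of all genes. Reads were divided between members and copies by estimation, so the copies are not a separate observation. The earlier naming of library 2 in the choice of this gene set means that these values are a description.

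The largest falls in library 2 were in Rps27, Rpl39, Rpl11, Rpl30, Rpl23, Rps16, Rpl24 and Rpl10a. Rps27 had 7856, 3937 and 7240 counts, a log2 ratio of -0.86, with a count uncertainty of 5.92%. Its chi-square adjusted p was 2.16e-245, and 3.66e-36 after division by the inflation. The p-values of Rpl39 and Rpl10a that follow are before that division. All of them ask only whether libraries differ, and none takes account of count uncertainty. Rpl39, an X-linked gene for a small protein of the exit tunnel, had 1879, 995 and 1659 counts, a log2 ratio of -0.74 (adjusted p = 2.76e-45), with a count uncertainty of 0.374%. In both, library 2 lay far below libraries 1 and 3. Rpl10a had 1680, 1060 and 1810 counts, and its libraries 1 and 3 also differed (log2 0.27 of library 3 over 1, adjusted p = 1.30e-06 without library 2). Rpl11, Rpl30 and Rpl23 were each at -0.68, Rps16 at -0.67 and Rpl24 at -0.65. Summed with its copies, Rps27 moved to -0.61, Rpl11 to -0.44, Rps16 to -0.50 and Rpl10a to -0.37, while Rpl39 stood at -0.75, Rpl24 at -0.70, Rpl30 at -0.63 and Rpl23 at -0.61; on this scale Rpl12 (-0.66) and Rps12 (-0.64) had larger falls than Rps27.

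The exceptions were few. Rpl7l1 had 1139, 1205 and 935 counts, a log2 ratio of 0.30 (adjusted p = 1.17e-07), with a count uncertainty of 0.109%; it did not pass after division by the inflation (adjusted p = 0.488). Rpl5 stood at 0.25 (186, 195 and 159 counts, adjusted p = 0.175), Rps27l at 0.04 (0.171), Rpl13 at -0.05 (0.136), Rpl10 at -0.08 (0.156) and Rps12 at -0.17 (0.343), and these 5 did not pass the test. Rpl5, Rpl10, Rpl12 and Rps12 were the 4 members with the largest share of counts in copies. Of these, Rpl12 was no exception: it passed the test with library 2 lowest and was at -0.66 summed with its copies. Summed with their copies, Rpl5 moved to -0.32, Rpl10 to -0.30, Rps12 to -0.64 and Rpl13 to -0.10. Whether the share in copies is a cause of the exceptions was not tested. Rps25 at -0.16 and Rps19 at -0.17 passed with smaller ratios. Across the 80 members the ratio had a Spearman rank correlation of 0.012 with transcript length, -0.036 with TPM, -0.052 with count uncertainty and 0.026 with the share of counts in copies; the points share the same 3 libraries.

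**Figure D4:**
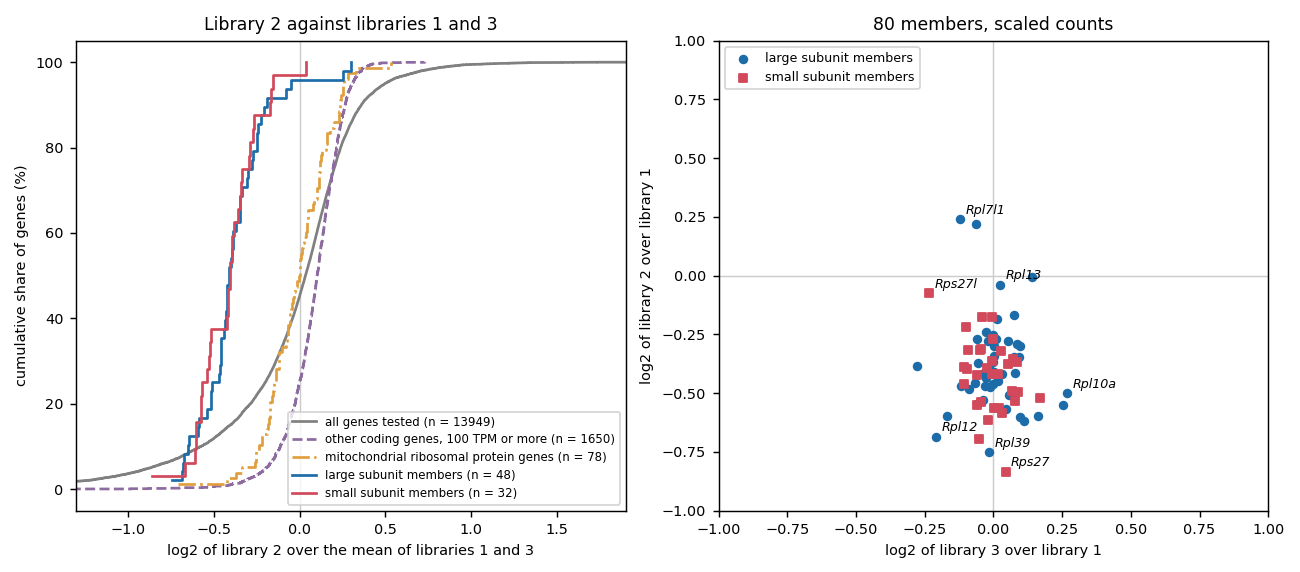
Left, cumulative share of genes (%) by log2 ratio of library 2 to the mean of libraries 1 and 3, for large and small subunit members and the gene sets named; right, log2 ratio to library 1 of library 2 (vertical) and library 3 (horizontal) for the 80 members. Member curves lie to the left of the others, with medians of -0.41, and most members sit near 0 for library 3 and well below 0 for library 2.

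Most of these calls rested on library 2. It had been named in the choice of this gene set, so the counts with a library left out are a description. Without library 2, libraries 1 and 3 differed in 13 of the 80 members (16.2%), against 27.5% of all genes. Without library 1, 73 members passed (91.2%), against 43.6% of all genes, and without library 3, 75 (93.8%), against 42.3%. In the better-determined members the difference was as large: 36 of the 37 with a count uncertainty of at most 1% passed (97.3%), against 59.3% of all genes tested with such an uncertainty, with a median of -0.40.

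The second deposited gene table, which holds whole-number counts on GENCODE M4, did not show the members in the same way. There they held 0.342%, 0.335% and 0.369% of counts, and a member's second count was a median of 3.29% of its estimated count, from 0.106% to 32.1%, against 50.7% over 11483 genes. The highest member there was Rpl4, with 2056, 2020 and 2022 against 19492, 15357 and 17575 estimated counts. Rps29, a zinc-binding small subunit protein, had 5, 4 and 6 counts against 5751, 3515 and 4935. Rps19 had 255, 244 and 250 against 15998, 12675 and 14247. Members with a count uncertainty over 1% kept a median of 2.10% and those at or below it 4.44%.

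In this table the median log2 ratio of library 2 was -0.09 over 76 members, 57 of them below 0, and 3 members passed the test (3.95%), against 27.3% of all genes. These were Rpl12 with 75, 29 and 51 counts, Rpl22 with 373, 278 and 318, and Rpl24 with 17, 4 and 19, all lowest in library 2. The median of the members' mean counts was 99.3 there, and a given ratio passes less easily at fewer counts. The part of the smaller number of calls that goes with fewer counts was not tested. How the second table was counted is not given in the sources used here, and the cause of the difference was not tested.

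**Figure D5:**
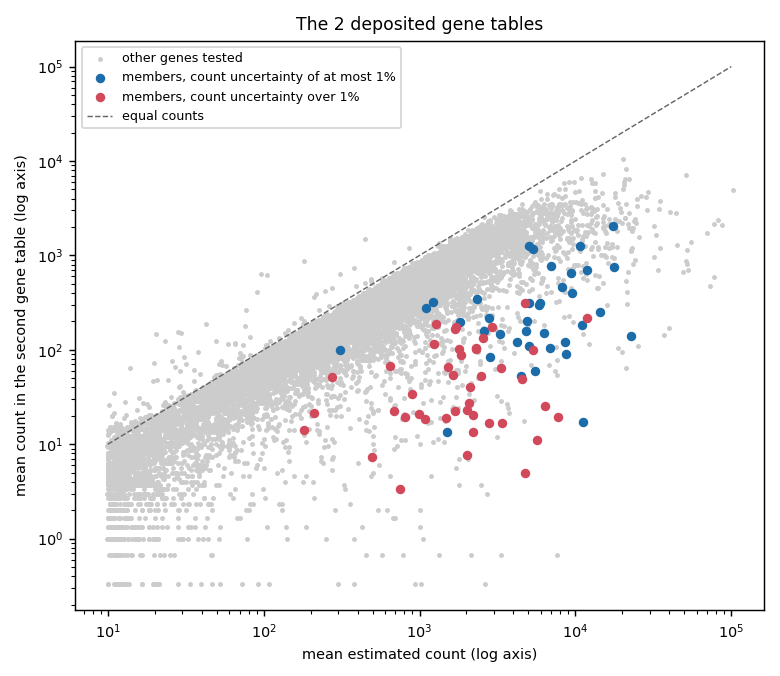
Mean count over 3 libraries in the second gene table against mean estimated count (both log axes; genes with 0 in the second table left out), with members coloured by count uncertainty, other genes tested in grey and equal counts as a dashed line. Members lie below most genes of like estimated count, at a median of 3.29% of it.

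Genes that act with the ribosomal proteins were given by lists. Of the 6 related genes outside the rule, Fau, Rack1, Rps27rt, Rpl36al and Rpl37rt among them, 5 passed the test, all with library 2 lowest, and their median log2 ratio was -0.44. Rack1, a signalling scaffold on the small subunit, was at 468, 398 and 520 TPM. Rps27rt and Rpl37rt of this list are also counted among the copies of Rps27 and Rpl37. For this list and those that follow, the shares of all genes were 57.2% in either direction, 17.9% with library 2 lowest and 27.3% with it highest. Of 16 small subunit factors 9 passed, 1 with library 2 lowest and 6 with it highest, at a median of 0.05, and of 21 large subunit factors 13 passed, 2 lowest and 7 highest, at 0.08. Their median levels were 39.7 ± 0.681 and 53.1 ± 4.19 TPM. The most abundant were the nucleolar proteins Nop53 (mean 496 TPM), Npm1 (480.5), Nop56 (329), Nop58 (206) and Fbl (153) with Eif6 (149), which keeps the subunits apart, and the lowest were Utp20 (13.6) and Nle1 (17.1).

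The 14 genes of RNA polymerase I, which makes ribosomal RNA, had a median of 39.4 ± 4.73 TPM. Polr1d (150), Znrd1 (119.5) and Taf1d (107) were highest in mean TPM and Cd3eap (3.61) lowest; 8 passed, 4 with library 2 lowest and 4 with it highest, beside the same shares of all genes. The 14 regulators of ribosomal protein mRNA and of surveillance had a median of 58.6 ± 4.66 TPM, and 7 passed, 2 lowest and 4 highest, beside those shares. Trp53 was at 167, 160 and 166 TPM. Myc, which drives ribosome production in activated T cells, was at 116, 164 and 129 TPM, highest in library 2 (log2 ratio 0.48, chi-square adjusted p = 9.11e-43 before division by the inflation). Hbs1l, which rescues stalled ribosomes, was at 116, 148 and 111 TPM, and its partner Pelo was lowest of the list at 5.32, 5.60 and 4.20 TPM.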

How the data were processed

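Polyadenylated RNA-seq of 3 libraries of 1 mouse was used. Per the file headers, the gene and transcript tables give expected counts, TPM, FPKM and posterior estimates as the authors deposited them; per the labels the assembly is mm10, and identifiers match GENCODE M21. A second deposited gene table holds whole-number counts on GENCODE M4 identifiers. The aligner and quantifier behind them: not given in the sources used here. Rows naming no gene were left out. Levels are deposited TPM. Each gene's expected counts were rounded and compared over libraries with a chi-square test (scipy 1.17.1), with TMM sizes (edgeR 4.0.16), a minimum of 30 counts in all and an adjusted p threshold of 0.05; the script was tested on simulated data. The library 2 ratio used CPM with a pseudocount of 0.5. Copies were found with BLAST 2.17.0, covering at least 50% of the copy's transcript, and each was given to its best parent. Alternatives used DESeq2 1.42.0 size factors, total counts, other minimums, FPKM, the second table and each library left out.

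Members, lists and the rule for named genes were chosen with earlier results of these data known. Named were the 10 highest and 10 lowest members, all paralog pairs, the 8 largest rises and falls in library 2, the 8 highest count uncertainties, the 6 lowest leading transcript shares, members with a separate role, and the 3 highest and the lowest of each related list. Leading copies and printed sequences were chosen after their values were seen. No protein sequences were used here. Some genes that the rule selects are not reported here by name; they stay in all counts and medians.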

Additional observations from a re-analysis of the deposited data

How the results depend on the processing

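Precision is set by 3 libraries of 1 mouse and by how reads are divided among near-identical sequences; the p-values measure differences between libraries only. No paired analysis was possible because the libraries form 1 group.

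Of the count of 75 members past the library test, leaving out a library gave 13 to 75, the lowest without library 2. The second table, where members had far fewer counts, gave 3 of 76. Limiting to count uncertainties of at most 1% gave 36 of 37, as fewer members were tested. The large and small subunit medians, 454 and 696 TPM, were 277 and 424 as FPKM, 153 and 224 as CPM, 1183 and 982 TPM at uncertainties of at most 1%. Chosen after seeing the data, they were 863 and 990 TPM with copies and 299 and 529 TPM on protein-coding transcripts. Their ratio was 0.753 at 10 TPM or more, 1.20 at uncertainties of at most 1%, 0.874 with copies and 0.566 on protein-coding transcripts. The members' share of counts was 3.03% with copies annotated as pseudogenes, 3.13% with all copies and 0.349% in the second table, and that of TPM 9.10% and 9.54% with such copies. The median library 2 ratio was -0.0924 in the second table and -0.40 to -0.46 under the other alternatives. The share of starts in a C or T run was 74.6% within 10 bases, and 15.2% when both the start (GENCODE) and the criterion (first 5 bases all C or T) were changed. The cause of these changes was not tested except where stated. Under the other 40 recomputations of these results the value stayed within the spread between libraries or, for a count, within 1.5 times. Of the paralog and leading transcript shares, 107 recomputed values stayed within that spread and 5 did not.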
